A study of Homo sapiens with 12 samples.

Results

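SPINK1, FST and GPNMB encode a secreted trypsin inhibitor, a secreted activin antagonist and a transmembrane glycoprotein whose outer part can be shed. The 3 genes were chosen by name from the 4988 genes of the authors' mRNA table, on their high bufotalin over control FPKM in these same libraries. Their treatment difference is therefore given as a description, with no test. RNA came from tumours labelled as xenografts of Hep3B, an established human hepatocellular carcinoma line, while the title of the series speaks of cells. A control group was compared with a group given bufotalin, a bufadienolide of the cardiac glycoside class, with 3 total RNA libraries each. All 6 libraries share the cell line. Host animal, dose, time of treatment and the substance given to controls are not stated. Nothing ties the replicates to separate animals or cultures, so p-values measure the spread between libraries alone, and that spread may be technical.

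SPINK1 is a small inhibitor with a single Kazal domain. It blocks trypsin that is activated too early inside pancreatic acinar cells, behaves as an acute phase protein inducible by interleukin 6, and is found in many liver tumours, where it is thought to signal through the EGF receptor. FST is a glycoprotein built of follistatin domains that wraps around activins and some bone morphogenetic proteins and keeps them from their receptors, and the liver is a main source of it in the circulation. GPNMB is a relative of the melanosome protein PMEL. It sits in late endosomes, lysosomes and the plasma membrane, is a known target of the transcription factors MITF, TFEB and TFE3, and is high in macrophages under lysosomal stress.

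The promoter sequences are shown because all 3 genes were higher in the bufotalin libraries, so letters they share or do not share can be read beside the values. Each runs 5′ to 3′ on the gene's strand, from 250 bases before to 50 bases after a start site in RefSeq, build GRCh38.p14. Capitals mark every match to the motifs listed after the sequences.
SPINK1, chr5:147831622-147831921, minus strand: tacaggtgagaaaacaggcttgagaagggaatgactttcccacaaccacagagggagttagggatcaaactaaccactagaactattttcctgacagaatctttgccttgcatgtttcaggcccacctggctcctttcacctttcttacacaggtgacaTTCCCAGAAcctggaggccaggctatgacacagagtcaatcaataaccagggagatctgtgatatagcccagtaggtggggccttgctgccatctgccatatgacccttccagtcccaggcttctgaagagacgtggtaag
FST, chr5:53480379-53480678, plus strand: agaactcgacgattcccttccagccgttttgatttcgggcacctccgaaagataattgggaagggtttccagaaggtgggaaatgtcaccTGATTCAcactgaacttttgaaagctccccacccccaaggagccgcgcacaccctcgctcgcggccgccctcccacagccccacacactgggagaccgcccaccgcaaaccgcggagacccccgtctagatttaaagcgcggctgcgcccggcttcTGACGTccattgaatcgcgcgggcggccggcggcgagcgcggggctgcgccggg
GPNMB, chr7:23246525-23246824, plus strand: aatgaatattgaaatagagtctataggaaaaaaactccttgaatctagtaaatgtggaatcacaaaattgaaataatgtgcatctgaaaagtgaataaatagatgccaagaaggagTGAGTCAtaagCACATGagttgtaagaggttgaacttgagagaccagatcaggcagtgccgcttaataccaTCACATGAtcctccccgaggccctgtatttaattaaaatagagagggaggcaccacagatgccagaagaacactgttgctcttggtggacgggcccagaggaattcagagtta

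Motifs were searched on both strands. For the factors MITF and TFE these were CACGTG as well as CATGTG. The letters of the latter are also part of the longer motif TCATGTGA. For AP-1 the search used TGANTCA. Cyclic AMP response factors were searched with TGACGT, which is part of the longer motif TGACGTCA. Other searches used TTCNNNGAA for STAT proteins. For the Wnt effectors TCF and LEF the letters were ATCAAAG. The TATA box was searched as TATAAA. The SPINK1 window held 1 match, TTCCCAGAA for STAT, at bases -91 to -83 from the start site, and 7.66% of 35116 RefSeq windows hold that motif. The FST window held the AP-1 match TGATTCA at -160 to -154 and TGACGT across the start site, found in 7.71% and 7.98% of windows. The GPNMB window held the AP-1 match TGAGTCA at -134 to -128 and CATGTG on the minus strand at -123 to -118 and at -62 to -57. The second of these lies within TCATGTGA at -63 to -56, a letter string held by 0.9995% of windows, against 11.1% for CATGTG. No motif was found in all 3 windows, and AP-1 was the only one in more than 1. The windows also differed in base composition: FST held 32 CpG pairs, SPINK1 1 and GPNMB 3, where the median over RefSeq windows was 14. A match is a description of these letters, and binding was not measured.

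**Figure D1:**
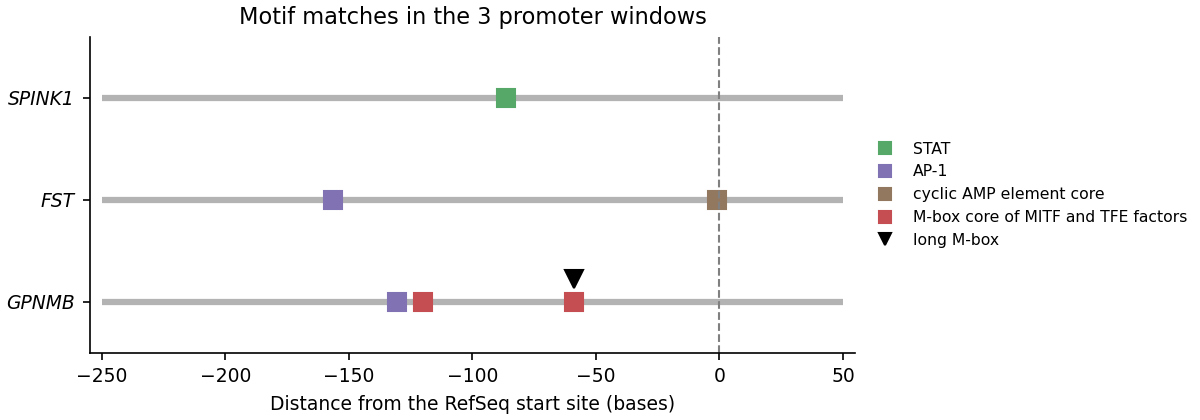
Positions of motif matches in the 3 promoter windows, with distance from the RefSeq start site in bases on the horizontal axis and 1 line per gene. Squares mark the centres of STAT, AP-1, cyclic AMP element and M-box matches and the triangle the long M-box, which lies over the CATGTG match of GPNMB at -62 to -57.

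Gene spans in the table (GRCh38) ran from 147824568 to 147839298 on chromosome 5 for SPINK1 (ENSG00000164266), from 53480626 to 53487134 on chromosome 5 for FST (ENSG00000134363) and from 23235967 to 23275108 on chromosome 7 for GPNMB (ENSG00000136235). The FST span began 0.003 kb from the RefSeq start shown above, but the SPINK1 and GPNMB spans reached 7.63 kb and 10.8 kb further upstream. For SPINK1 the RefSeq gene itself reached base 147839196, so the start shown is not its outermost one in RefSeq. For GPNMB the RefSeq gene began at the start shown. Reads of transcripts with other starts can thus be part of those 2 values. RefSeq places a lncRNA inside the SPINK1 span and another across the upstream end of the GPNMB span. Whether counting used strand is not given in the sources used here, so reads of such overlapping genes cannot be told apart.

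Values are FPKM, fragments per kilobase of gene scaled by library size, and the table holds genes picked by the authors for a difference in this very contrast, so it is no whole transcriptome. They summed to 102677 to 105803 FPKM in control and 114207 to 121337 FPKM in bufotalin libraries, and no 2 libraries were identical. Absolute depth is unknown. Among values under 0.1 FPKM, the same ratio between 2 libraries seldom repeated. The most frequent ratio between bufotalin replicates 1 and 2 was seen 8 times in 231. If such values rested on equal numbers of reads, it would put replicate 2 at 0.914 of the depth of replicate 1. Between groups no ratio was seen more than 2 times, so the depths of the groups could not be set against each other. limma tested, on log2(FPKM + 1), the 4273 genes whose mean reached 0.5 FPKM with Benjamini-Hochberg adjustment, and called 93.2% of them at an adjusted p under 0.05, 44.3% higher and 48.8% lower in bufotalin. The median log2 fold change was 0.13, and it was 0.31 after scaling the libraries to equal medians. A call is thus common in this table.

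SPINK1 was listed at 0.914, 0.679 and 0.637 FPKM in control replicates 1, 2 and 3, and at 36.3, 28.1 and 24.3 FPKM in bufotalin replicates 1, 2 and 3. The lowest bufotalin library stood 26.5 times above the highest control library. Group means were 0.743 ± 0.149 and 29.5 ± 6.14 FPKM (SD, n = 3), a ratio of 39.8, and the log2 fold change on FPKM + 1 was 4.12 (SE 0.15). This was the 2nd highest log2 fold change of the tested genes. By mean level SPINK1 stood at place 4174 of 4273 in control and at place 848 in bufotalin libraries.

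FST was listed at 2.66, 2.51 and 3.56 FPKM in the control libraries and at 49.6, 49.3 and 43.1 FPKM in the bufotalin libraries. Here too the groups lay far apart, the lowest bufotalin library standing 12.1 times above the highest control library. The means were 2.91 ± 0.569 and 47.3 ± 3.68 FPKM (SD, n = 3), a ratio of 16.3, with a log2 fold change of 3.63 (SE 0.13), the 4th highest. FST stood at place 3579 by mean level in control and at place 514 in bufotalin libraries.

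GPNMB was listed at 1.29, 1.30 and 1.18 FPKM in control and at 9.15, 13.4 and 14.2 FPKM in bufotalin libraries. Its control libraries were closely alike and its treated libraries were not, with replicate 1 the lowest. The means were 1.25 ± 0.0677 and 12.2 ± 2.69 FPKM (SD, n = 3), a ratio of 9.75, with a log2 fold change of 2.53 (SE 0.16), the 9th highest. For all 3 genes every bufotalin library lay above every control library, which held for 43.8% of the tested genes. Since these values chose the members, nothing is read from that count. The log2(FPKM + 1) scale understates the difference where control values are low: with a pseudocount of 0.01 the log2 fold changes were 5.29 for SPINK1, 4.03 for FST and 3.25 for GPNMB. In bulk tumour RNA, more cells of a type and more RNA per cell cannot be told apart.

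**Figure D2:**
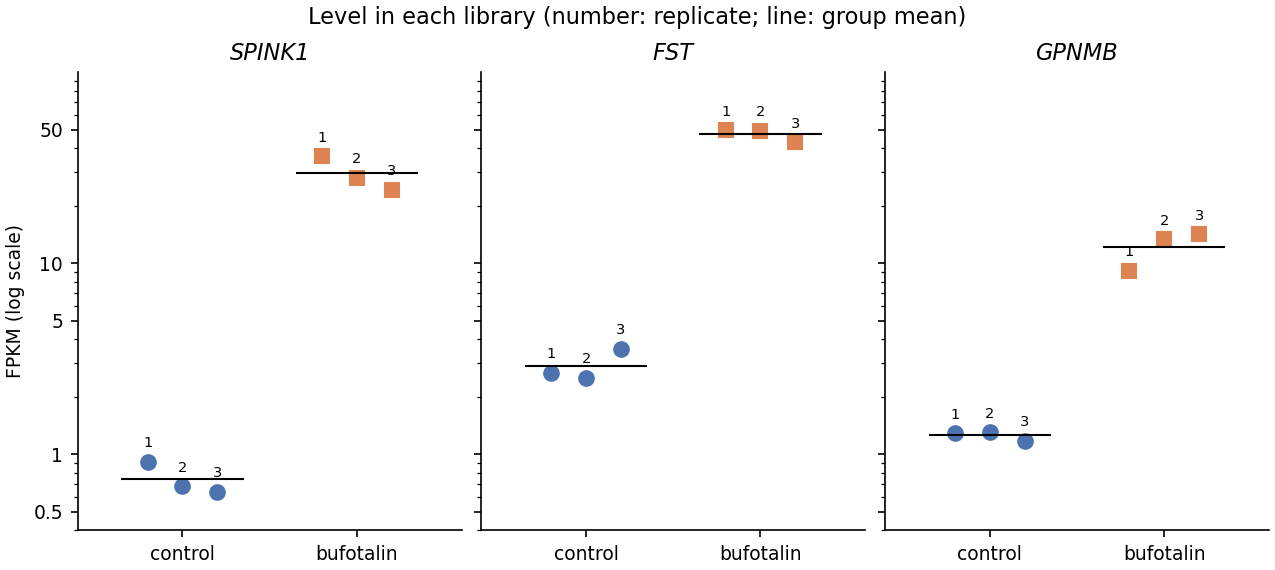
FPKM of SPINK1, FST and GPNMB (log axis) in each library of the control (circles) and bufotalin (squares) groups, with the replicate number above each point and a line at the group mean. The groups do not overlap, and bufotalin replicate 1 holds the highest SPINK1 value (36.3 FPKM) and the lowest GPNMB value (9.15 FPKM).

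The 3 genes did not keep one order. In every control library FST was highest, GPNMB next and SPINK1 lowest on the FPKM scale, which corrects for length. In every bufotalin library FST was again highest, but SPINK1 lay above GPNMB. The level of SPINK1 was 0.522 to 0.711 times that of GPNMB in control and 1.71 to 3.97 times in bufotalin libraries. FST stood 2.91 to 5.59 times above SPINK1 in control and 1.37 to 1.78 times in bufotalin libraries. Neighbours in both orders did not overlap over the 3 libraries of a group. Across libraries the bufotalin values came nearest for FST at 43.1 FPKM in replicate 3 and SPINK1 at 36.3 FPKM in replicate 1. Within the bufotalin group SPINK1 and FST were highest in replicate 1, where GPNMB was lowest, and the coefficient of variation was 20.8% for SPINK1, 7.78% for FST and 22% for GPNMB.

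The genes most like each member were those with the smallest root mean square difference between profiles of log2(FPKM + 1), each centred on its mean over the 6 libraries. These profiles share the treatment contrast that chose the members. Nearest to SPINK1 were the pregnancy-specific glycoprotein gene PSG5 (0.22), FST (0.31), PSG4 (0.39), the Wnt antagonist gene DKK1 (0.42) and the zinc finger gene ZNF114 (0.70). Nearest to FST were DKK1 (0.23), SPINK1 (0.31), PSG4 (0.41), PSG5 (0.44) and the transferrin receptor gene TFRC (0.57). SPINK1 and FST thus stood on each other's list. Nearest to GPNMB were CCN3, which encodes a matricellular protein (0.18), PSG9 (0.20), the aldehyde oxidase gene AOX1 (0.23), TFRC (0.26) and the steroid sulfatase gene STS (0.26). Its distance was 0.87 to SPINK1 and 0.61 to FST, where the median distance to all tested genes was 1.23. CCN3 was listed at 2.84, 2.79 and 2.99 FPKM in control and at 18.3, 19.3 and 19.8 FPKM in bufotalin libraries. PSG genes have near-identical copies, so the split of reads between them is uncertain.

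SPINK1 lies in a cluster of Kazal inhibitor genes on chromosome 5, and its listed relatives there did not go the same way. SPINK5, whose product restrains kallikreins of the skin, was listed at 79.9, 105.3 and 45.6 FPKM in control and at 8.66, 10.02 and 11.5 FPKM in bufotalin libraries. All control libraries lay above all treated ones, and SPINK5 fell (log2 fold change -2.75, SE 0.28, limma adjusted p 5.03e-05). SPINK13 fell from 44.0 ± 1.23 to 29.3 ± 8.36 FPKM (-0.61, SE 0.19, limma adjusted p 0.0123), a call that ended after scaling to equal medians (-0.42). SPINK6 did not pass: it was listed at 26.3, 7.99 and 28.0 FPKM in control and at 3.49, 21.3 and 5.37 FPKM in bufotalin libraries. Its replicates 2 stood apart in each group, and without bufotalin replicate 2 it was called lower (-1.85, limma adjusted p 0.0468). MARCOL, whose span overlaps that of SPINK13 so that their reads cannot be told apart, fell from 24.6 ± 2.20 to 10.5 ± 2.64 FPKM. These 4 genes were the only ones of the table within 500 kb of SPINK1, where RefSeq has 12 other coding genes.

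**Figure D3:**
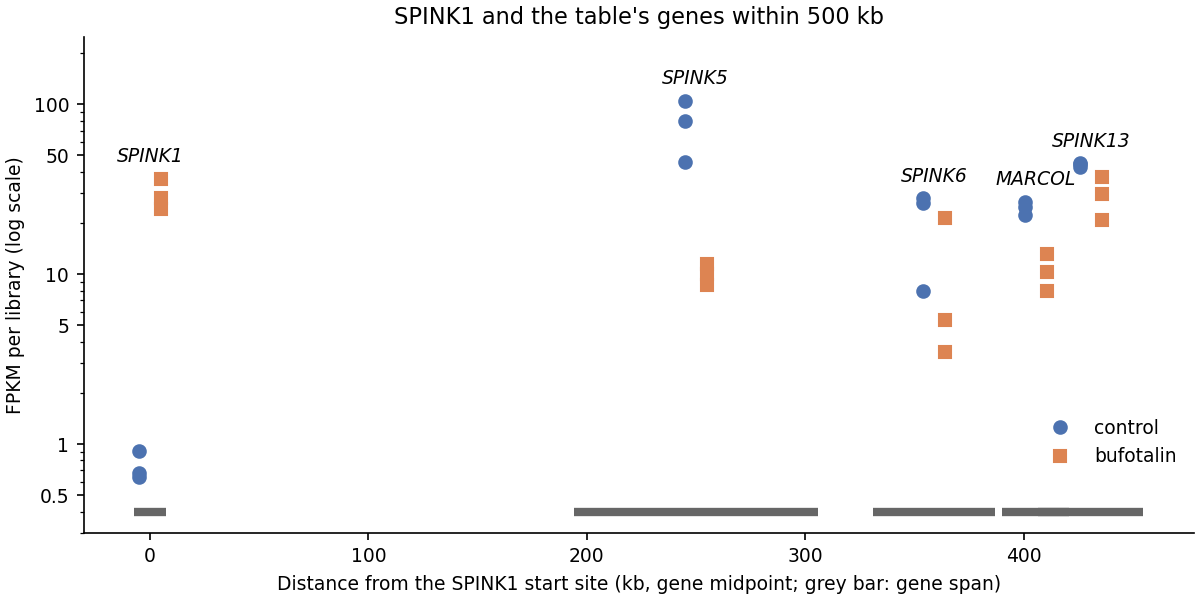
FPKM per library (log axis) of SPINK1 and the 4 table genes within 500 kb, placed by the distance of each gene's midpoint from the SPINK1 start site in kb, with grey bars for gene spans, circles for control and squares for bufotalin. SPINK1 is higher in bufotalin, while SPINK5, MARCOL and SPINK13 are lower and SPINK6 overlaps between groups.

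Around the other members little was listed. GPNMB had 1 table gene within 500 kb, MALSU1, which encodes a mitochondrial ribosome assembly factor and rose by 0.48 on the log2 scale (SE 0.11), from 10.5 ± 0.620 to 15.0 ± 1.10 FPKM, and FST had none, where RefSeq has 10 and 4 other coding genes. None of the 536 transcripts of the authors' lncRNA table lay within 1 Mb of any of the 3 genes.

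Of 34 listed Kazal domain proteins and serine protease inhibitors, a list without SPINK1 and SPINK13, 7 were in the table and tested. Among these 1 rose, 5 fell and 1 was not called, with a median log2 fold change of -1.13. Of all tested genes 44.3% were called higher and 48.8% lower, with a median of 0.13. Beside SPINK5, KAZALD1, a secreted protein with a Kazal domain, fell from 16.3 ± 0.423 to 4.63 ± 0.80 FPKM (-1.63, SE 0.13). SERPINB1, an inhibitor of neutrophil elastase, fell from 56.5 ± 2.84 to 26.0 ± 0.597 FPKM, RECK, a membrane-anchored protease inhibitor, from 5.69 ± 0.104 to 2.08 ± 0.459 FPKM, and SERPINE2, an inhibitor of thrombin, from 6.39 ± 0.810 to 2.62 ± 0.224 FPKM. The one that rose was SERPINB8, from 1.07 ± 0.468 to 3.57 ± 0.283 FPKM (1.17, SE 0.17).

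Of 29 listed serine proteases and their receptors, 7 were in the table, 5 were tested and all 5 of these fell, with a median of -1.29, in a table where 48.8% of all tested genes were called lower. F2R, the thrombin receptor, fell from 3.65 ± 0.416 to 0.586 ± 0.191 FPKM (-1.55, SE 0.13). KLK1, a kallikrein, fell from 3.43 ± 0.432 to 0.826 ± 0.30 FPKM, PLAT, the tissue plasminogen activator, from 2.95 ± 1.03 to 0.513 ± 0.193 FPKM, and F10, coagulation factor X, from 1.53 ± 0.253 to 0.279 ± 0.146 FPKM. PRSS8, a membrane-anchored protease, fell by 0.61 on the log2 scale, a call that was lost under quantile normalization. The trypsin genes PRSS1, PRSS2 and PRSS3, which encode the classic targets of SPINK1, were not in the table and are not analysed here.

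In the interleukin 6 and STAT3 list, 6 of 27 genes were in the table, of which 4 rose, 1 fell and 1 was not called. Their median was 0.68, where all tested genes had 0.13, with 44.3% called higher and 48.8% called lower. CEBPB, a transcription factor of the acute phase, averaged 32.3 ± 4.54 FPKM in control and 54.6 ± 1.94 FPKM in bufotalin libraries (0.75, SE 0.12). OSMR, the oncostatin M receptor, rose from 9.90 ± 0.946 to 15.8 ± 2.85 FPKM, and the cytokine gene IL11 from 0.399 ± 0.160 to 1.65 ± 0.575 FPKM. The kinase JAK1, which carries the signal from these receptors, fell from 36.2 ± 1.83 to 13.5 ± 0.788 FPKM (-1.35, SE 0.11). IL6R, the interleukin 6 receptor, was listed at 3.85, 2.02 and 4.41 FPKM in control and at 13.9, 3.90 and 13.2 FPKM in bufotalin libraries. Replicate 2 was low in both groups, the groups overlapped, and IL6R was not called (1.24, SE 0.50, limma adjusted p 0.0557).

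For FST, the listed ligands of the activin, BMP and TGF-beta families were read first. Of 26, 6 were in the table and 5 were tested: 4 rose and 1 fell, with a median of 0.49. Over all tested genes the shares were 44.3% higher and 48.8% lower, and the median was 0.13. BMP2, a bone morphogenetic protein that follistatin binds only weakly, was listed at 38.6, 40.3 and 33.3 FPKM in control and at 87.1, 98.6 and 96.7 FPKM in bufotalin libraries (log2 fold change 1.31, SE 0.12). GDF15, a distant member of the family induced by stress, rose by 1.08 (SE 0.13), and AMH, the anti-Müllerian hormone gene, from 1.61 ± 0.186 to 2.65 ± 0.145 FPKM. BMP1, which is a metalloproteinase in spite of its name, fell from 14.3 ± 0.570 to 6.96 ± 0.118 FPKM. INHBE, an activin subunit gene of the liver, was under the FPKM minimum and was listed at 0.705, 1.11 and 0.546 FPKM in control and at 0.331, 0.176 and 0.105 FPKM in bufotalin libraries, and the other activin subunit genes were not listed.

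Of 18 listed receptors, 4 were in the table and 3 were tested. Among these 1 rose, 1 fell and 1 was not called, against 44.3% higher and 48.8% lower of all tested genes. TGFBR2 rose from 7.85 ± 0.675 to 10.3 ± 0.796 FPKM (0.36, SE 0.11), a call that was lost without control replicate 2. BMPR2 fell from 4.99 ± 0.221 to 3.08 ± 0.394 FPKM (-0.56, SE 0.12) but stood at 0.04, uncalled, once libraries were quantile normalized. TGFBR1 was not called, with 67.2, 42.1 and 52.0 FPKM in control and 102.6, 86.5 and 39.9 FPKM in bufotalin libraries, although it was called higher without bufotalin replicate 3 (0.82). The activin receptors ACVR1B, ACVR2A and ACVR2B were not listed.

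Of 25 other extracellular antagonists and latency proteins, 10 were in the table and 5 were tested. Among these 1 rose, 3 fell and 1 was not called, with a median of -0.85. For all tested genes the median was 0.13, with 44.3% called higher and 48.8% called lower. FSTL1, a secreted protein with a follistatin domain, was listed at 41.9, 46.5 and 52.6 FPKM in control and at 85.2, 91.0 and 85.9 FPKM in bufotalin libraries, and it rose (log2 fold change 0.89, SE 0.12). FSTL4 fell from 37.2 ± 1.99 to 17.1 ± 3.17 FPKM (-1.09, SE 0.14). FSTL3, which like FST binds activins, was listed at 53.7, 54.1 and 56.3 FPKM in control and at 87.7, 66.2 and 55.3 FPKM in bufotalin libraries. The groups overlapped and FSTL3 was not called (0.32, SE 0.16), though it was called higher with bufotalin replicate 3 left out (0.47) and with library medians made equal (0.51). In FPKM, FSTL3 stood above FST in every library. The latent TGF-beta binding proteins LTBP4 (-1.10, SE 0.11) and LTBP3 (-0.85, SE 0.14) fell. With the FPKM minimum removed, 6 members of this list were called lower in place of 3.

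Among SMAD proteins and their targets, 11 of 26 were in the table and 10 were tested. Of these, 6 rose, 3 fell and 1 was not called, against 44.3% higher and 48.8% lower of all tested genes. The list had a median of 0.37, and all tested genes had 0.13. CCN2, a matricellular protein induced by TGF-beta, was listed at 4.28, 4.42 and 4.64 FPKM in control and at 15.4, 14.5 and 13.7 FPKM in bufotalin libraries (1.51, SE 0.10). Its relative CCN1 rose from 14.1 ± 1.12 to 28.1 ± 1.14 FPKM. The BMP target ID2 rose from 6.27 ± 0.876 to 11.7 ± 1.26 FPKM, whereas ID1, another BMP target, fell from 82.8 ± 14.9 to 41.6 ± 12.7 FPKM. SMURF2, a ubiquitin ligase of the pathway, fell from 8.25 ± 0.330 to 4.74 ± 0.585 FPKM. SMAD1 fell as well (-0.77), a call that quantile normalization ended.

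**Figure D4:**
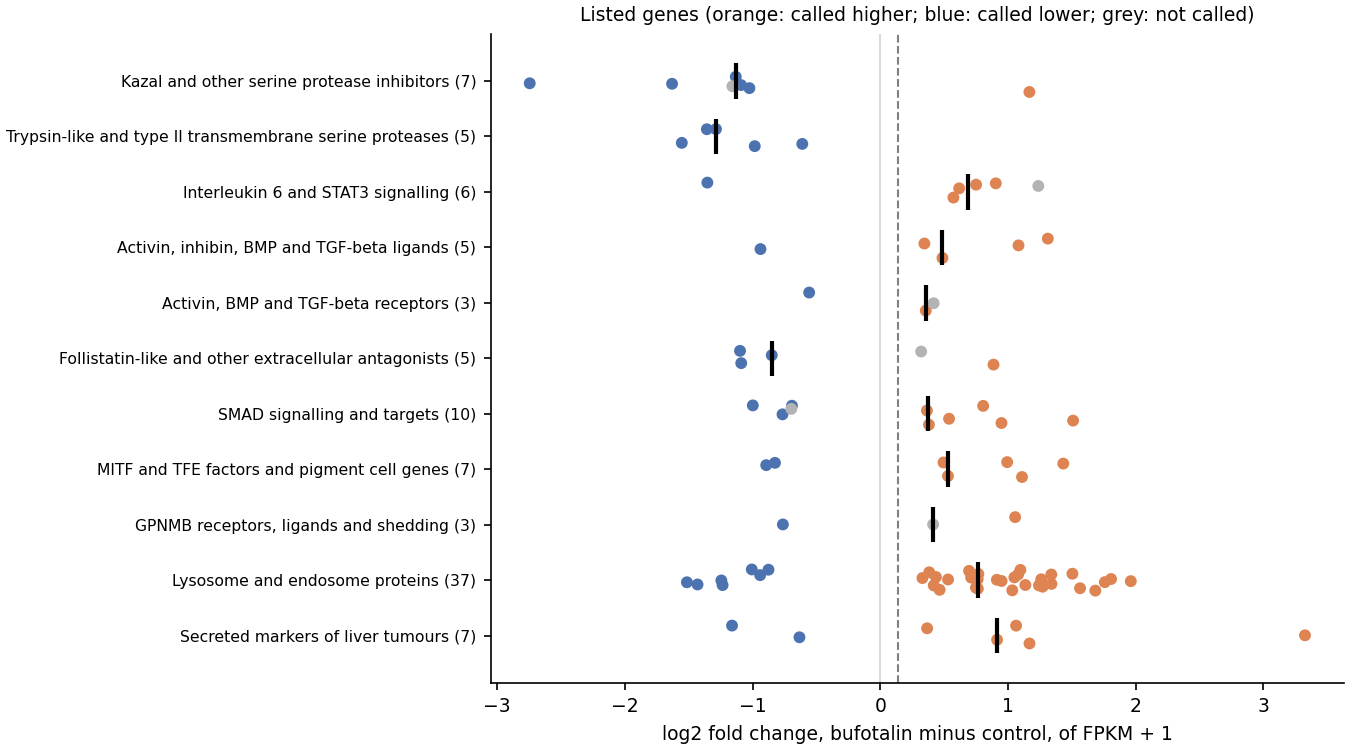
Log2 fold change, bufotalin minus control on FPKM + 1, of each tested gene in the 11 pathway lists, with the number tested in brackets. Black bars are list medians and the dashed line is the median of all tested genes (0.13). The lysosome list lies mostly to the right (30 of 37 called higher) and the protease list wholly to the left (5 of 5 called lower).

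For GPNMB, the factors that bind its promoter and the proteins that control them were read first. Of 19 listed genes, 7 were in the table and tested: 5 rose and 2 fell, with a median log2 fold change of 0.53. Among all tested genes 44.3% were called higher and 48.8% lower, and the median was 0.13. MITF was listed at 21.0, 18.2 and 18.8 FPKM in control and at 25.8, 27.9 and 29.1 FPKM in bufotalin libraries (0.49, SE 0.11). TFEB, TFE3 and TFEC were not listed. FLCN, folliculin, which with its partners controls whether TFE factors stay in the cytoplasm, was listed at 6.80, 5.90 and 7.57 FPKM in control and at 20.8, 20.3 and 18.5 FPKM in bufotalin libraries (1.43, SE 0.12). Its partner FNIP1 rose from 13.5 ± 1.62 to 27.8 ± 1.16 FPKM and FNIP2 from 2.73 ± 0.177 to 4.39 ± 0.502 FPKM. The Rag GTPase gene RRAGC rose from 14.8 ± 1.31 to 33.0 ± 3.02 FPKM, but RRAGA, which encodes another Rag GTPase, fell from 24.0 ± 3.14 to 13.1 ± 2.23 FPKM. RAB27A, of melanosome and vesicle transport, fell from 5.67 ± 0.447 to 2.6 ± 0.339 FPKM. PMEL and the pigment enzyme genes were not listed.

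Lysosome and endosome genes were mostly higher. Of 59 listed, 37 were in the table and tested, 30 rose (81.1%, against 44.3% of all tested genes) and 7 fell, with a median log2 fold change of 0.77. Of the list's subunits of the proton pump that acidifies the lysosome, 9 were in the table, and all 9 rose, by 0.42 to 1.81. The lowest of them, ATP6V1D, lost its call when any library but control replicate 1 was left out. The pump genes ATP6V1A, ATP6V1E1, ATP6V1G1 and ATP6AP2 of the list were not in the table. ATP6V0A1 was listed at 6.52, 8.94 and 7.46 FPKM in control and at 26.0, 33.3 and 28.2 FPKM in bufotalin libraries. ATP6V0E1 rose from 30.4 ± 2.82 to 105.2 ± 7.20 FPKM, ATP6V0D1 from 17.3 ± 1.24 to 58.3 ± 9.09 FPKM and MCOLN1, the lysosomal calcium channel, from 4.29 ± 0.232 to 12.4 ± 1.12 FPKM.

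The genes of this list that fell were LIPA, GAA, MANBA, MAN2B1, CTSC, SCARB2 and NAGLU. GAA, acid alpha-glucosidase, went from 7.12 ± 0.831 to 1.87 ± 0.586 FPKM, and LIPA, lysosomal acid lipase, from 29.8 ± 4.31 to 10.4 ± 1.32 FPKM. The sialidase gene NEU1 had the highest log2 fold change of the list (1.96, SE 0.18). Under quantile normalization the calls of PSAP, CTSL and CTSC were among those lost.

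**Figure D5:**
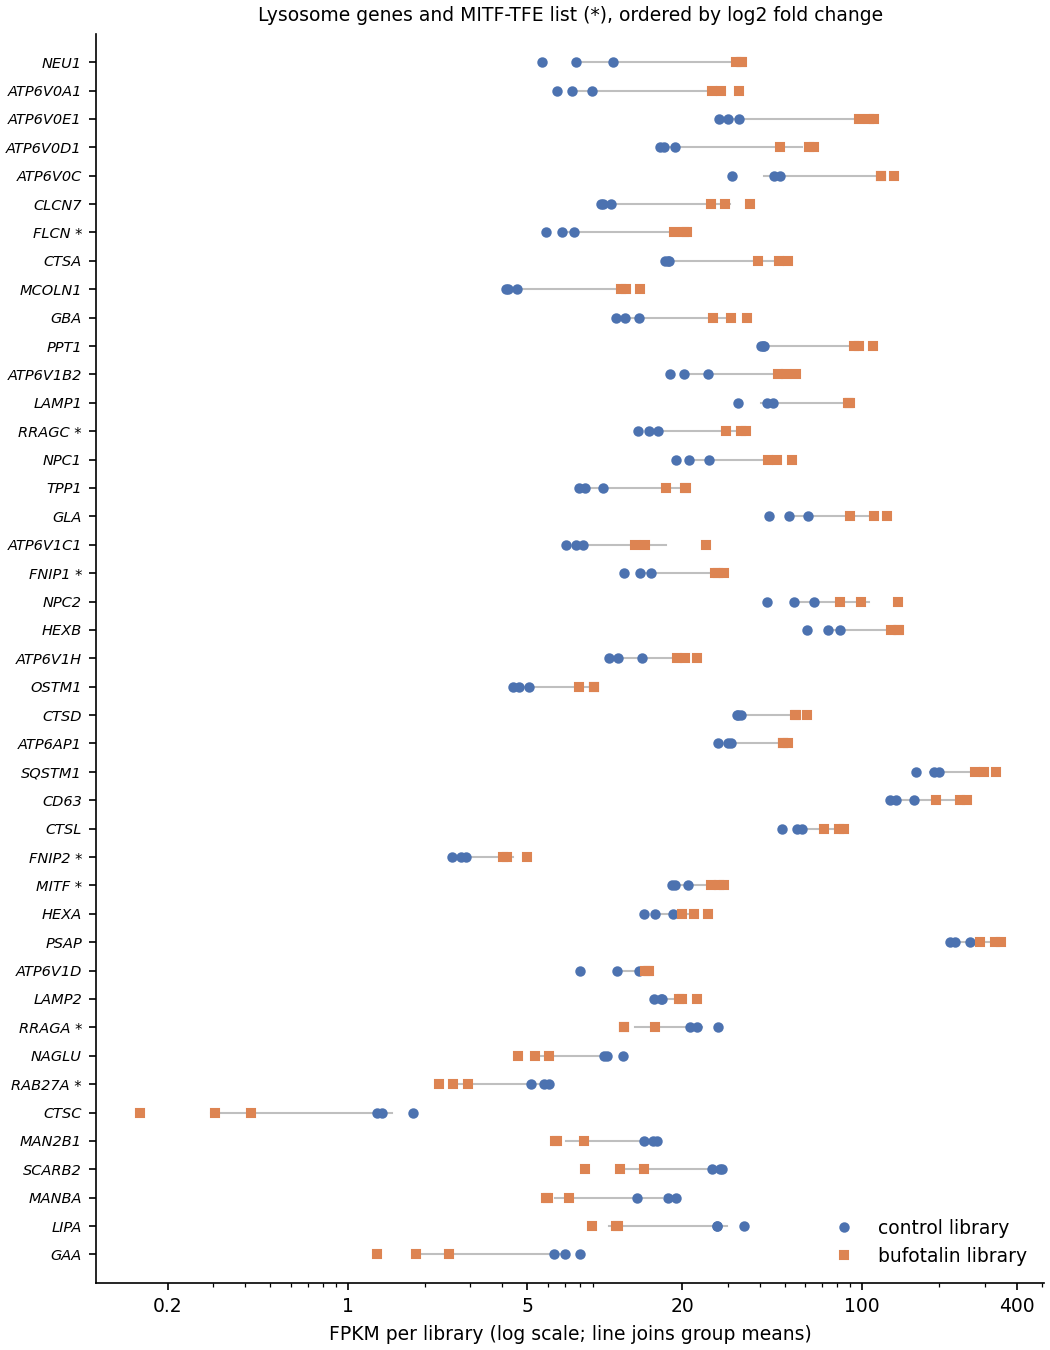
FPKM per library (log axis) of lysosome and endosome genes and of the 7 genes of the MITF and TFE list (starred), ordered by log2 fold change from highest at the top, with circles for control, squares for bufotalin and a line joining group means. The upper genes, from NEU1 to LAMP2, are higher in bufotalin, and 9 genes at the bottom are lower.

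Of 15 listed receptors, partners and sheddases of GPNMB, 3 were in the table, of which 1 rose, 1 fell and 1 was not called. The shares over all tested genes were 44.3% higher and 48.8% lower. ITGB1, the integrin beta 1 chain, fell from 111.2 ± 2.24 to 65.2 ± 4.0 FPKM. EGFR, also the receptor proposed for SPINK1, was not called (0.41, SE 0.23). It was listed at 52.9, 27.4 and 31.8 FPKM in control, where replicate 1 stood apart, and at 43.9, 44.8 and 56.8 FPKM in bufotalin libraries, and it was called higher without control replicate 1 (0.69) and after scaling to equal medians (0.60).

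Among 28 secreted or shed markers of liver tumours, 8 were in the table and 7 were tested: 5 rose and 2 fell, against 44.3% and 48.8% of all tested genes. Under quantile normalization the calls of LCN2, one of those that fell, and VEGFA were lost, and the difference of LCN2 was no longer below 0. DKK1 was listed at 3.95, 2.51 and 3.41 FPKM in control and at 47.3, 44.1 and 34.4 FPKM in bufotalin libraries. MUC13, a membrane mucin, rose from 278.1 ± 10.4 to 585.1 ± 76.4 FPKM, and IGFBP1, a binding protein of insulin-like growth factors, from 0.881 ± 0.137 to 3.27 ± 0.791 FPKM. The surface glycoprotein gene CD24 fell from 24.4 ± 0.588 to 10.4 ± 0.235 FPKM.

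Markers of cells other than hepatoma cells were read beside these values, since GPNMB is abundant in macrophages. The genome used was human, and how reads of the host were treated is not given in the sources used here. Marker values therefore cannot be taken as amounts of host cells. Of 18 macrophage markers 5 were in the table, with a summed level of 3.24 to 3.58 FPKM in control and 4.66 to 6.83 FPKM in bufotalin libraries. CSF1R held most of it and rose from 3.31 ± 0.15 to 4.99 ± 1.06 FPKM (0.46, SE 0.14). CD14 was at most 0.0758 FPKM in control and 0.522 to 0.728 FPKM in bufotalin libraries. ITGAM and ADGRE1 were listed at 0 in every bufotalin library and at no more than 0.0703 and 0.0816 FPKM in control. MRC1 was listed at 0 in every control library and at no more than 0.0482 FPKM in bufotalin libraries. These 4 genes were under the FPKM minimum and were not tested. The part of these cells in the GPNMB value was not tested. Of 16 fibroblast markers 7 were in the table and 6 tested, and all 6 fell, against 48.8% of all tested genes. The summed level of the 7 was 76.2 to 81.4 FPKM in control and 21.7 to 26.2 FPKM in bufotalin libraries, and the calls of ACTA2 and PDGFRB were lost under quantile normalization, where PDGFRB turned above 0. Of 10 endothelial markers 2 were listed, of which CDH5 rose and EGFL7 fell. Of 7 melanocyte markers only MITF was listed, and none of 12 pancreatic acinar markers. Of 18 hepatocyte and hepatoma markers 3 were listed. KRT8 rose (0.55, SE 0.22) with groups that overlapped. TF was listed at 0 in control and at no more than 0.0402 FPKM in bufotalin libraries. The label of the tissue could therefore not be checked against ALB, AFP or the other liver markers, which are not analysed here.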

How the data were processed

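Total RNA of 3 control and 3 bufotalin samples was sequenced and the authors deposited FPKM values for genes they had selected as different, 4988 in the mRNA table and 536 transcripts in the lncRNA table. Per the submitters' processing notes, CASAVA 1.8, fastp, HISAT2 2.0.5, featureCounts 1.5.0-p3, DESeq2 1.20.0 and GRCh38 were used. Strand use in counting is not given in the sources used here. Because of the authors' selection, shares of called genes are high by construction, and depth cannot be read from FPKM, so no counting interval was given.

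The FPKM columns were matched to samples by name. log2(FPKM + 1) was fitted with limma 3.58.1 in R 4.3.3 (trended, robust) over the 4273 genes whose mean reached 0.5 FPKM, with Benjamini-Hochberg adjustment at 0.05, and the fit was tested on simulated data. Means are given with the SD of 3 libraries. The 3 genes and all lists were chosen with earlier results of these data known, so the members carry no test and lists are given by counts and medians. Named were up to 4 genes per list by smallest p, the 5 nearest profiles of each member, table genes within 500 kb and relatives of the members. Other list genes printed were chosen after their values were seen, and some items are not reported here. Promoters came from RefSeq (GRCh38.p14). A planned search of proteins for Kazal domains was not run, and the 6 small RNA libraries were not used. Samples with the same replicate number did not deviate together, so the numbers were not taken as pairs. Alternatives were 2 other scalings, 2 pseudocounts, 2 FPKM minimums, a plain limma fit, a replicate block and leaving out each library. Tables and plots used Python 3.11.15, pandas 2.3.3, numpy 2.4.6, scipy 1.17.1 and matplotlib 3.10.9.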

Additional observations from a re-analysis of the deposited data

How the results depend on the processing

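The log2 fold changes of the 3 genes stayed above 0 in all 14 other settings, but their size moved with the pseudocount, which weighs on low control values. SPINK1 had 5.13 with a pseudocount of 0.1 and 5.29 with 0.01, FST 3.99 and 4.03, and GPNMB 3.16 and 3.25. Quantile normalization gave 3.87 for FST and 2.91 for GPNMB. Without 1 library at a time SPINK1 ranged from 3.96 to 4.24, FST from 3.56 to 3.75 and GPNMB from 2.42 to 2.71.

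Called genes numbered 3256 under quantile normalization and 4456 with no FPKM minimum, against 3981. The replicate block gave 3957, and the same-number correlations of deviations were -0.02, 0.03 and -0.05, with control replicate 1 closest to bufotalin replicate 3 (0.06). Among the 67 called genes counted below, the replicate block ended the call of KRT8 (limma adjusted p 0.0781). This left 0 hepatocyte markers called higher, as did quantile normalization. Leaving out a library gave 0 to 1 hepatocyte markers, 0 to 2 receptors, 1 to 2 antagonists and 1 to 2 GPNMB partners called higher. The receptor count was 2 without bufotalin replicate 3 and 0 without control replicate 2, the antagonist count was 2 without bufotalin replicate 3, and the partner count was 2 without control replicate 1. The hepatocyte count was 0 without bufotalin replicates 1 or 3 or control replicates 1 or 3. Scaling to equal medians gave 2 antagonists and 2 GPNMB partners called higher. Quantile normalization gave 0 receptors and 1 secreted tumour marker called lower, and the log2 fold change of BMPR2 turned from -0.56 to 0.035. With no FPKM minimum, 2 ligands, 2 receptors, 6 antagonists, 1 hepatocyte marker and 1 macrophage marker were called lower, and 2 antagonists and 2 macrophage markers higher, since more genes were tested. With a minimum of 1 FPKM, fewer were tested: 3 proteases and 1 secreted marker were called lower and 0 endothelial markers higher. The stability of calls was counted over 67 called genes besides the members, which left out some list genes printed above. Of these 67, 61 kept the call in every setting in which they were tested. Among the genes left out of this count, PRSS8, SMAD1, PSAP, CTSC, CTSL, LCN2, VEGFA and PDGFRB lost their calls under quantile normalization. CDH5 and F10 were not tested at the minimum of 1 FPKM. The 6 of the 67 that lost their call in 1 or more settings were ACTA2, ATP6V1D, BMPR2, KRT8, SPINK13 and TGFBR2. The cause was not tested. With mean absolute differences, 5, 4 and 4 of the 5 nearest genes of SPINK1, FST and GPNMB were shared.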
